A study of Mus musculus with 12 samples.

Results

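Genes of T cells and natural killer (NK) cells were followed in whole mouse lung under normoxia and chronic hypoxia, with and without NFAT5 in endothelial cells. The set was given as 34 gene symbols, and 32 of the 34 were found among the 24704 genes of the array annotation, each with 1 probe set. Lck and Tcf7 were not analysed here. Of the 32, 20 are mainly T cell genes and 12 are genes of NK cells and of cytotoxic granules. Expression was measured on 12 Affymetrix arrays in 4 groups of 3 mice, and all values are log2 levels as deposited.

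All mice were adult males and females of 10 to 12 weeks at treatment. Control mice carried floxed alleles (Nfat5fl/fl) and received only the solvent miglyol, and knockout mice (Nfat5(EC)-/-) received 1 mg of tamoxifen daily for 5 days, which deletes the gene in endothelial cells. The sources used here do not name the promoter that drives the recombinase. Since the knockout mice alone received tamoxifen, the drug and the deletion cannot be told apart. After 2 to 3 weeks of recovery each genotype was kept in normoxia or for 21 days in hypoxia. Lungs were perfused to remove blood before RNA was extracted, so cells attached to vessels or within tissue remained. The submitters left out lungs that held foreign tissue such as thymus, or that responded too little to hypoxia. The first of these exclusions bears directly on T cell genes, and the second was made on expression.

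T cells recognise antigen through a receptor of alpha and beta chains held in a complex with the CD3 chains and the zeta chain, which carry the signal into the cell. The coreceptors CD4 and CD8 bind MHC molecules, and costimulatory receptors such as CD28 decide whether a signal leads to activation. NK cells carry no rearranged receptor and instead weigh signals from activating and inhibitory lectin-like receptors, many of them encoded together in the NK gene complex. Both NK cells and cytotoxic T cells kill by releasing perforin and granzymes, and the T-box factors Eomes and T-bet drive that programme. Lung is among the tissues rich in NK cells.

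Sorted values were identical on all 12 arrays (median 4.55), and arrays of a group correlated with r between 0.989 and 0.994. The mean level of 11 of the 32 members lay below that median, and the deposited values come with no detection call, so small changes of those members are close to what an array can resolve. Nfat5 itself was 9.11 ± 0.25 (SD, n = 3) in control and 8.67 ± 0.11 in knockout lungs in normoxia (limma adjusted p = 0.62), so whole lung gave no clear check of the genotype labels. Markers of brown fat and of heart muscle stood out on 3 arrays. Ucp1, the heat-producing protein of brown fat, was high on control hypoxia 1 (7.66) and knockout normoxia 2 (9.31). Nppa, an atrial hormone, was high on knockout normoxia 2 (11.94) and knockout normoxia 4 (9.41). Thymocyte genes showed no such array. The recombinase gene Rag1 lay between 3.29 and 3.62, Rag2 between 2.80 and 3.15 and the DNA polymerase Dntt between 2.90 and 3.11 over all 12 arrays.

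With hypoxia, averaged over both genotypes, 9 of the 32 members fell and 0 rose at an adjusted p under 0.05 in limma. They were 5 T cell genes (Trbc1, Cd3g, Il7r, Cd8a and Lat) and 4 NK receptor genes (Klrd1, Klrk1, Ncr1 and Klre1). These are 28.1% of the members, while 7.4% of all genes tested fell in this comparison, 7.27% rose and 14.7% passed in either direction. The median log2 change was -0.13 over the 20 T cell members and -0.22 over the 12 NK and cytotoxic members, beside 0.01 over all genes. In 5 of the 32 (15.6%) the hypoxic arrays lay below all normoxic arrays in both genotypes, against 3.64% of all genes. In whole lung, fewer cells of a type and less of an RNA per cell cannot be told apart. Without the 3 arrays with brown fat or heart markers, 4 of the 9 still passed (Trbc1, Cd3g, Lat and Ncr1), while the number of all genes that passed in either direction went from 3622 to 775.

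**Figure D1:**
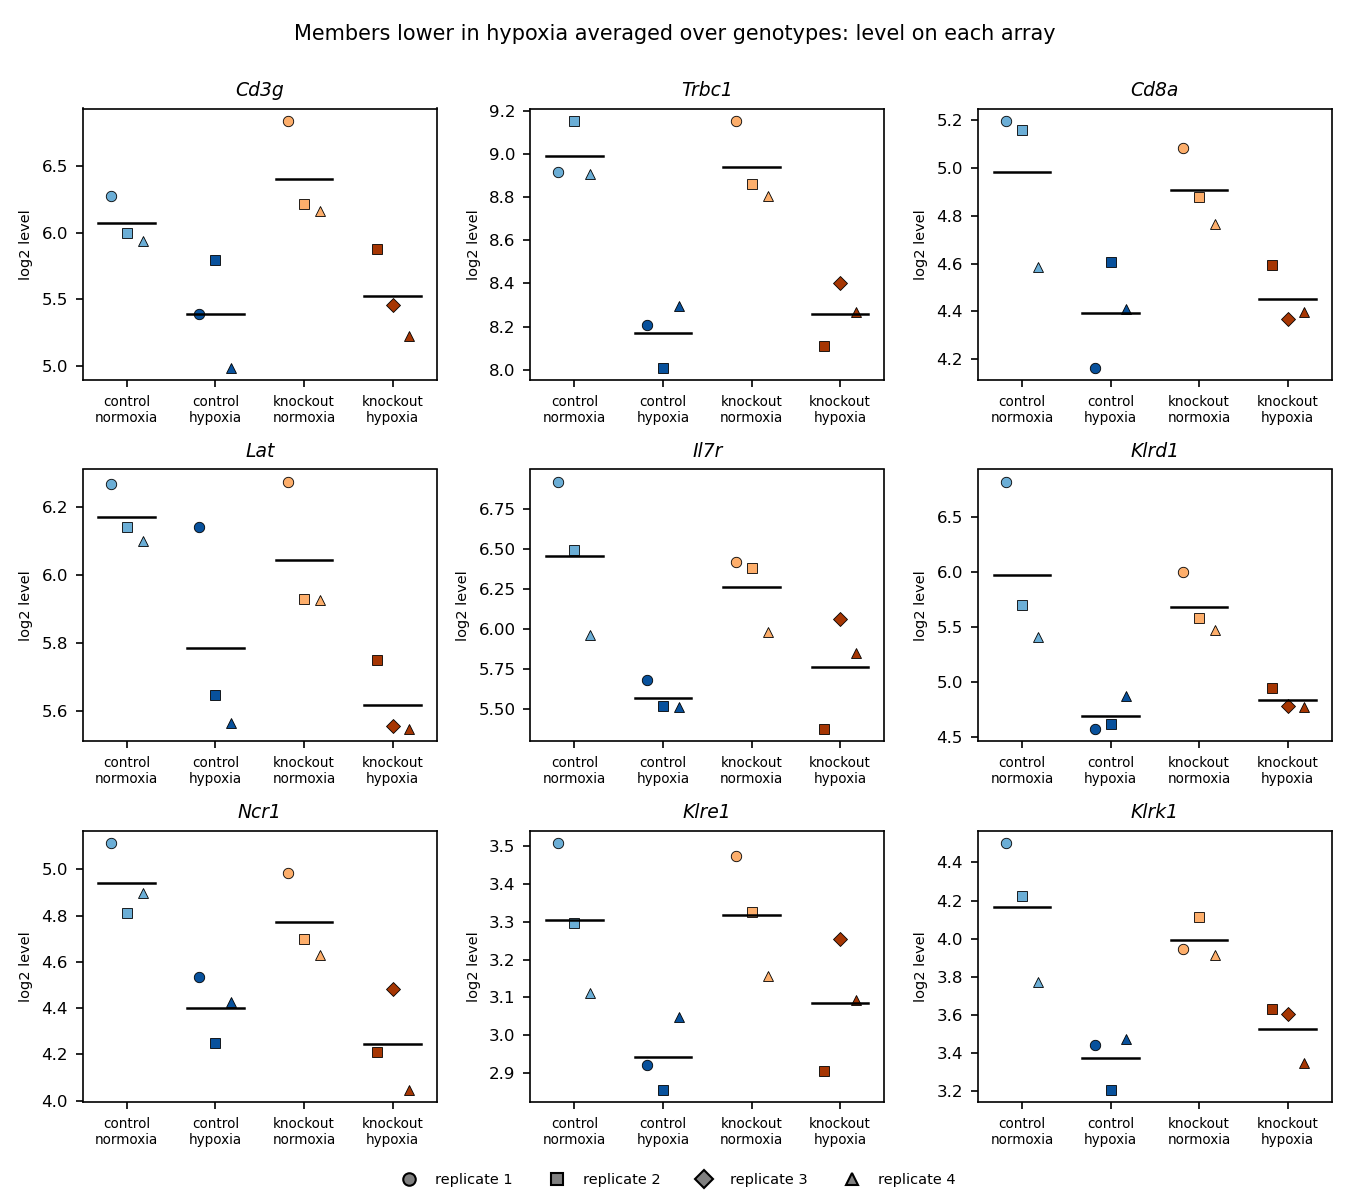
Log2 level on each of the 12 arrays (vertical axes, which differ by panel) for the 9 members that fell with hypoxia averaged over both genotypes, by group (horizontal axes). Symbols are single arrays, shaped by replicate number, and bars are group means of 3. For Trbc1 the 6 hypoxic arrays lie between 8.01 and 8.40, below the 6 normoxic arrays.

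Trbc1, a constant segment of the T cell receptor beta chain, changed most clearly of the receptor complex. Its level was 8.92, 9.15 and 8.91 on the 3 control normoxia arrays and 8.21, 8.01 and 8.30 in control hypoxia. Knockout lungs had 9.15, 8.86 and 8.80 in normoxia and 8.11, 8.40 and 8.27 in hypoxia. All hypoxic arrays lay below all normoxic ones. The log2 change was -0.82 ± 0.12 (SE; limma adjusted p = 0.0049) in control lungs, -0.68 ± 0.12 (adjusted p = 0.026) in knockout lungs and -0.75 ± 0.09 (adjusted p = 0.00062) averaged over both. It was the 1 member that passed in each genotype alone. Trbc1 and Trbc2 encode nearly identical constant segments, and how the array assigned shared probes is not given, so their signals may be mixed. Trbc2, looked up after these values were seen, fell by 0.46 averaged over both genotypes (adjusted p = 0.0099). The alpha chain segment Trac, also looked up afterwards, changed by -0.37 ± 0.15 (adjusted p = 0.12).

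The 3 CD3 chains, which transmit the receptor's signal and lie next to each other on chromosome 9 with no annotated gene between them, gave unequal values. Cd3g, the gamma chain, was 6.27, 6.0 and 5.94 in control normoxia and 5.39, 5.80 and 4.99 in control hypoxia. Knockout lungs gave 6.84, 6.21 and 6.16 in normoxia and 5.88, 5.46 and 5.23 in hypoxia. The hypoxic arrays were below the normoxic ones in both genotypes, and averaged over them Cd3g fell by 0.78 ± 0.17 (adjusted p = 0.011), a 1.72-fold decrease. Its changes in control (-0.68 ± 0.24, adjusted p = 0.085) and knockout lungs (-0.88 ± 0.24, adjusted p = 0.12) did not pass alone. For Cd3e, the epsilon chain, the averaged change was 0.10 ± 0.16, with a 95% confidence interval from -0.24 to 0.45. Its hypoxic arrays lay between 6.5 and 7.32 and its normoxic arrays between 6.54 and 7.39. For Cd3d, the delta chain, the averaged change was -0.14 ± 0.10 (interval -0.36 to 0.07), and all 12 arrays lay between 3.80 and 4.46, below the array median, where a change is hard to resolve. Cd247, the zeta chain, changed by -0.09 ± 0.08 (interval -0.27 to 0.09). Whether Cd3g changed more than the other chains was not tested, and each chain rests on 1 probe set.

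The promoters of the neighbours Cd3g and Cd3d are shown because their RNAs gave different values while their start sites face apart across a short stretch of DNA. Each window runs from 250 bases before to 50 after the RefSeq start site (GRCm38.p6), 5′ to 3′ on the gene's own strand. It is chr9:44980382-44980681 on the minus strand for Cd3g and chr9:44981536-44981835 on the plus strand for Cd3d. Capitals mark 6-base cores searched on both strands: TCACAC of T-box factors, TGTGGT of RUNX factors and GGAAGT of ETS factors.
Cd3g: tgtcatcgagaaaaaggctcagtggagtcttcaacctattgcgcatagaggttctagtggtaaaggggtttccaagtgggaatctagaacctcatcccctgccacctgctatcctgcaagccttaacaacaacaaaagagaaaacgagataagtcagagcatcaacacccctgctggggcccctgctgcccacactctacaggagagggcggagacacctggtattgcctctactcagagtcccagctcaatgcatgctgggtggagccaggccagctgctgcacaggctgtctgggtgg
Cd3d: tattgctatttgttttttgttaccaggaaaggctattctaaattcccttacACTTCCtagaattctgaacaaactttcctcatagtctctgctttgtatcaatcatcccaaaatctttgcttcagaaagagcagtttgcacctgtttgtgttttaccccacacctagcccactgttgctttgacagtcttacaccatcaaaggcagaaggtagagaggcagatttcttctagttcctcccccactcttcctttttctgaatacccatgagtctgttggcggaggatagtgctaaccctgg
The Cd3d window holds 1 ETS core on the opposite strand, beginning at position -199 from the start, and the Cd3g window holds 0 of the cores. Counted per gene over any of its start sites, the ETS core occurs in 26.5% of the 27025 genes with a RefSeq window, the RUNX core in 18.9% and the T-box core in 16.4%. Per single window the shares are 23.8%, 16.8% and 14.5% of 32851. Of the 23 members with a window, 10 (43.5%) held the ETS core, 11 (47.8%) the RUNX core and 5 (21.7%) the T-box core, counted the same way per gene. The cores can overlap each other, and a match describes letters only.

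**Figure D2:**
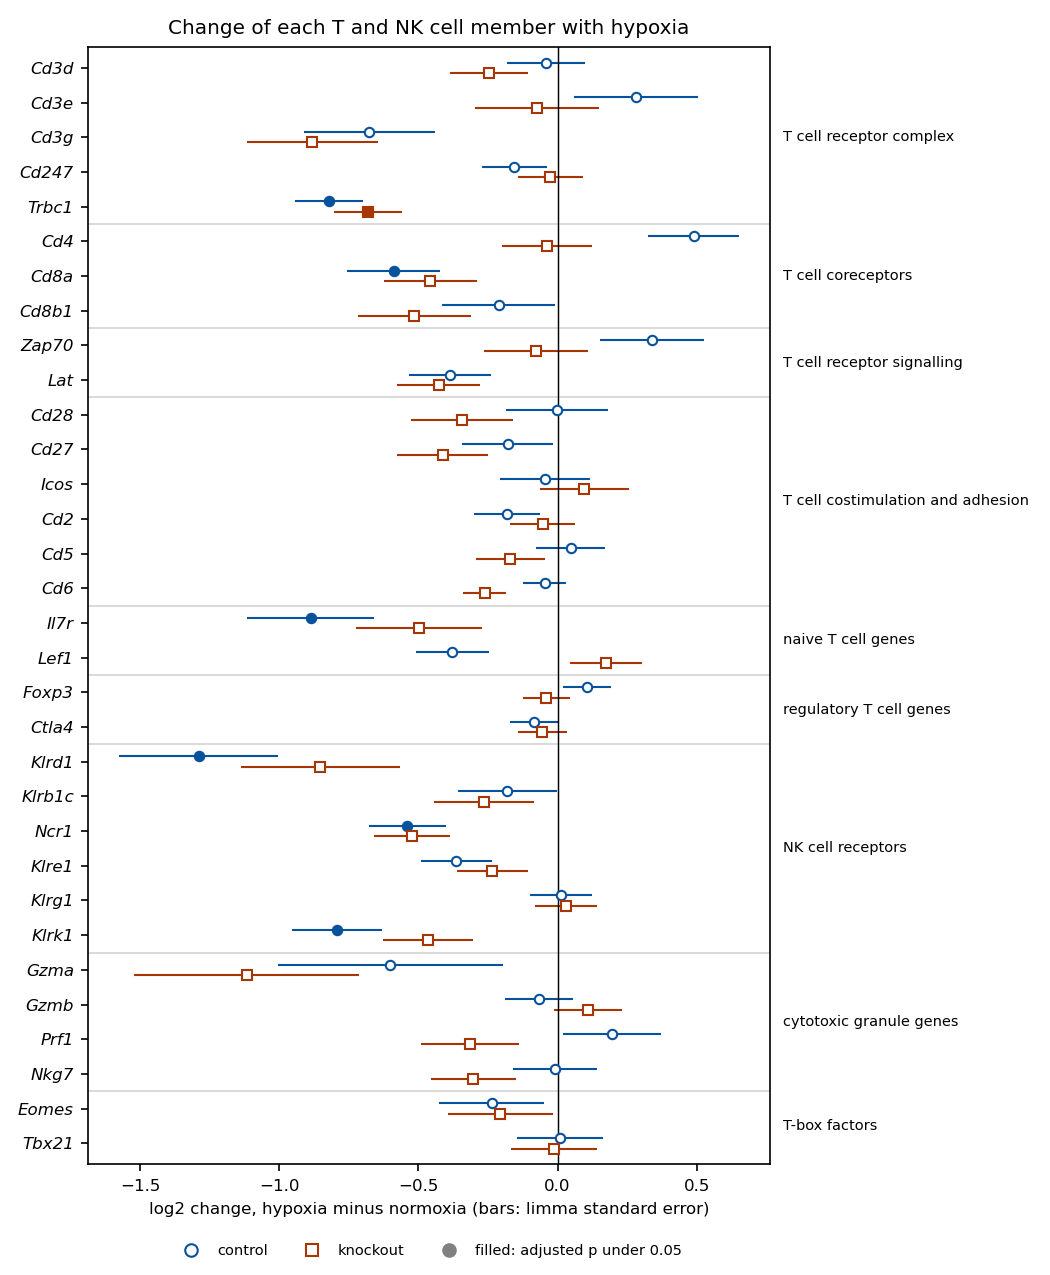
Log2 change with hypoxia of the 32 members (rows, grouped by role) in control lungs (circles) and knockout lungs (squares), from limma. Horizontal lines are standard errors and filled symbols passed at an adjusted p under 0.05. In control lungs 24 of 32 members (75%) lie below 0 and in knockout lungs 28 of 32 (87.5%), beside 47.7% and 49% of all genes.

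Among the coreceptors, the CD8 alpha chain changed and CD4 did not pass. Cd8a was 5.20, 5.16 and 4.59 in control normoxia and 4.16, 4.61 and 4.41 in control hypoxia. The knockout arrays read 5.08, 4.88 and 4.77 in normoxia and 4.59, 4.37 and 4.40 in hypoxia. The groups did not overlap in knockout lungs, whereas in control lungs control normoxia 4 lay within the hypoxic range. Averaged over genotypes Cd8a fell by 0.52 ± 0.12 (adjusted p = 0.014). In control lungs it fell by 0.59 ± 0.17 (adjusted p = 0.042), a call kept in 2 of the 12 fits that each left out 1 array. Cd8b1, the beta chain encoded beside it, changed by -0.36 ± 0.14 (adjusted p = 0.12; interval -0.68 to -0.05). Cd4, which marks helper and regulatory T cells and also some myeloid cells, was 5.38, 4.95 and 5.56 in control normoxia and 5.75, 5.90 and 5.71 in control hypoxia, so the hypoxic arrays were higher without overlap, as in 14% of all genes. The change in control lungs was 0.49 ± 0.16 (adjusted p = 0.073), in knockout lungs -0.04 ± 0.16 and averaged 0.23 ± 0.11 (adjusted p = 0.23).

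Of the signalling proteins below the receptor, the adaptor Lat passed. Control lungs had 6.27, 6.14 and 6.10 in normoxia and 6.14, 5.65 and 5.56 in hypoxia. Knockout lungs had 6.28, 5.93 and 5.93 in normoxia and 5.75, 5.55 and 5.55 in hypoxia. The 3 knockout hypoxia arrays lay below all 3 knockout normoxia arrays, while control hypoxia 1 lay within the control normoxia range. Lat fell by 0.41 ± 0.11 averaged over genotypes (adjusted p = 0.025), and 7 of the 12 leave-out fits kept the call. Zap70, the kinase that docks on phosphorylated CD3 and zeta chains, changed by 0.13 ± 0.13 averaged (adjusted p = 0.58). Its level was 4.68, 4.63 and 4.89 in control normoxia and 4.66, 5.43 and 5.12 in control hypoxia.

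None of the 6 costimulatory and adhesion receptors passed in any hypoxia comparison, and their median averaged change was -0.14. Cd6, a scavenger-type receptor of T cells, changed by -0.15 ± 0.06 (adjusted p = 0.086) and Cd27, a costimulator of the TNF receptor family, by -0.30 ± 0.12 (adjusted p = 0.11). Cd28, the main costimulatory receptor, changed by -0.17 ± 0.13 and Cd2, an adhesion receptor, by -0.12 ± 0.08. Cd5, an inhibitory coreceptor, changed by -0.06 ± 0.09 and Icos, a costimulator of activated T cells, by 0.03 ± 0.11. At an unadjusted p under 0.05, 2 of these 6 would pass averaged over genotypes, where 28.4% of all genes would.

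Il7r, the receptor for the survival cytokine IL-7 on naive and memory T cells and on innate lymphoid cells, fell. It was 6.92, 6.49 and 5.96 in control normoxia and 5.68, 5.52 and 5.52 in control hypoxia. Knockout lungs had 6.42, 6.38 and 5.98 in normoxia and 5.38, 6.06 and 5.85 in hypoxia. The control groups did not overlap, and knockout hypoxia 3 lay above the lowest knockout normoxia array. The change was -0.89 ± 0.23 in control lungs (adjusted p = 0.030), -0.50 ± 0.23 in knockout lungs (adjusted p = 0.40) and -0.69 ± 0.16 averaged (adjusted p = 0.016). Lef1, a Wnt-responsive factor of naive T cells that other lung cells also use, changed by -0.10 ± 0.09 averaged. Regulatory T cell genes passed nowhere. Foxp3, their lineage factor, lay between 3.64 and 3.97 on all arrays and Ctla4, an inhibitory receptor, between 3.09 and 3.39, both far below the array median, so a change in them may not be measurable here.

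Among the NK receptors 4 of 6 fell averaged over genotypes, and 3 of these 4 (Klrd1, Klrk1 and Ncr1) also passed in control lungs. Klrd1 encodes CD94, the partner chain of the inhibitory and activating NKG2 receptors. Its level was 6.82, 5.70 and 5.41 in control normoxia and 4.57, 4.62 and 4.87 in control hypoxia. In knockout lungs it was 6.0, 5.59 and 5.47 in normoxia and 4.94, 4.78 and 4.78 in hypoxia. Every hypoxic array lay below every normoxic array. The log2 change was -1.29 ± 0.28 in control lungs (adjusted p = 0.017), -0.85 ± 0.28 in knockout lungs (adjusted p = 0.21) and -1.07 ± 0.20 averaged (adjusted p = 0.0061), a 2.10-fold decrease. Control normoxia 1 was the highest array, and without it the control change was -0.87 and still passed (adjusted p = 0.026). Without control hypoxia 2 it was -1.26 and did not pass (adjusted p = 0.068).

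Klrk1 encodes NKG2D, an activating receptor for stress-induced ligands on NK cells and CD8 T cells. It was 4.5, 4.22 and 3.77 in control normoxia and 3.44, 3.21 and 3.47 in control hypoxia. In knockout lungs it was 3.95, 4.11 and 3.92 in normoxia and 3.63, 3.61 and 3.35 in hypoxia. The groups did not overlap in either genotype, and all 12 arrays lay below the array median. The change was -0.79 ± 0.16 in control lungs (adjusted p = 0.013), -0.46 ± 0.16 in knockout lungs (adjusted p = 0.23) and -0.63 ± 0.11 averaged (adjusted p = 0.0052). Ncr1 encodes NKp46, an activating receptor that defines NK cells and some innate lymphoid cells. Control lungs had 5.12, 4.81 and 4.90 in normoxia and 4.53, 4.25 and 4.43 in hypoxia. Knockout lungs had 4.99, 4.70 and 4.63 in normoxia and 4.21, 4.48 and 4.05 in hypoxia. The hypoxic arrays were again below the normoxic ones in both genotypes, with nearly equal changes of -0.54 ± 0.14 in control (adjusted p = 0.029) and -0.52 ± 0.14 in knockout lungs (adjusted p = 0.11). Averaged, Ncr1 fell by 0.53 ± 0.10 (adjusted p = 0.0053).

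Klre1, a lectin-like receptor of rodent NK cells, had low levels between 2.86 and 3.51 and fell by 0.30 ± 0.09 averaged (adjusted p = 0.044). That call held in 3 of the 12 leave-out fits. Klrb1c, which encodes the NK1.1 antigen of some mouse strains, changed by -0.22 ± 0.13 (interval -0.50 to 0.05). Klrg1, an inhibitory receptor of mature NK cells and effector T cells that some regulatory T cells and innate lymphoid cells share, changed by 0.02 ± 0.08 (interval -0.15 to 0.19). Klrb1c has near relatives in the same gene family, and shared probes cannot be judged from the files.

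Klre1, Klrd1 and Klrk1 stand side by side in the NK gene complex on chromosome 6 with no annotated gene between them, and all 3 fell averaged over genotypes. The windows of the 2 with a RefSeq promoter entry are shown with the same marking as above. They are chr6:129577963-129578262 on the plus strand for Klre1, the first of its annotated start sites, and chr6:129623815-129624114 on the minus strand for Klrk1.
Klre1: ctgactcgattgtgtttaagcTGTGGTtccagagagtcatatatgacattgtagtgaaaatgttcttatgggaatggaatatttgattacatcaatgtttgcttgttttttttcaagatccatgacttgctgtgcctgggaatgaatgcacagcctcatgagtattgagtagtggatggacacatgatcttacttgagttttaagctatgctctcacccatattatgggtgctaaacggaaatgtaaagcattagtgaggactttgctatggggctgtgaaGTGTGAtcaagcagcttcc
Klrk1: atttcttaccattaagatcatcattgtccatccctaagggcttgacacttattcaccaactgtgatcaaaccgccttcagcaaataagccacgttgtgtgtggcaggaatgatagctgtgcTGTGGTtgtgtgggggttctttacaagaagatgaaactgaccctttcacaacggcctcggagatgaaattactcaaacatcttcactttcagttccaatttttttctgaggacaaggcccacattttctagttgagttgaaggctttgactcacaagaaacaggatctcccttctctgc
Both windows hold 1 RUNX core, beginning at position -229 from the start in Klre1 and at -129 in Klrk1. The Klre1 window also holds 1 T-box core on the opposite strand, at position 32 of the transcript.

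The genes of the killing machinery did not pass. Gzma, the tryptase-like granzyme A, was 6.31, 4.92 and 5.09 in control normoxia and 4.94, 4.87 and 4.71 in control hypoxia. In knockout lungs it was 6.66, 5.10 and 5.42 in normoxia and 5.02, 4.41 and 4.39 in hypoxia. Control normoxia 1 and knockout normoxia 1 stood far above the other 10 arrays, and the knockout groups did not overlap. The averaged change was -0.86 ± 0.29 (adjusted p = 0.066). Prf1, the pore-forming perforin, changed by -0.06 ± 0.12 (interval -0.33 to 0.21), Gzmb, the aspartate-cleaving granzyme B, by 0.02 ± 0.09 (interval -0.17 to 0.21) and Nkg7, a granule membrane protein, by -0.16 ± 0.11 (interval -0.39 to 0.08). The factors of the effector programme passed nowhere either. Eomes changed by -0.22 ± 0.13 (interval -0.51 to 0.07) and Tbx21, which encodes T-bet, by 0.00 ± 0.11 (interval -0.24 to 0.24).

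**Figure D3:**
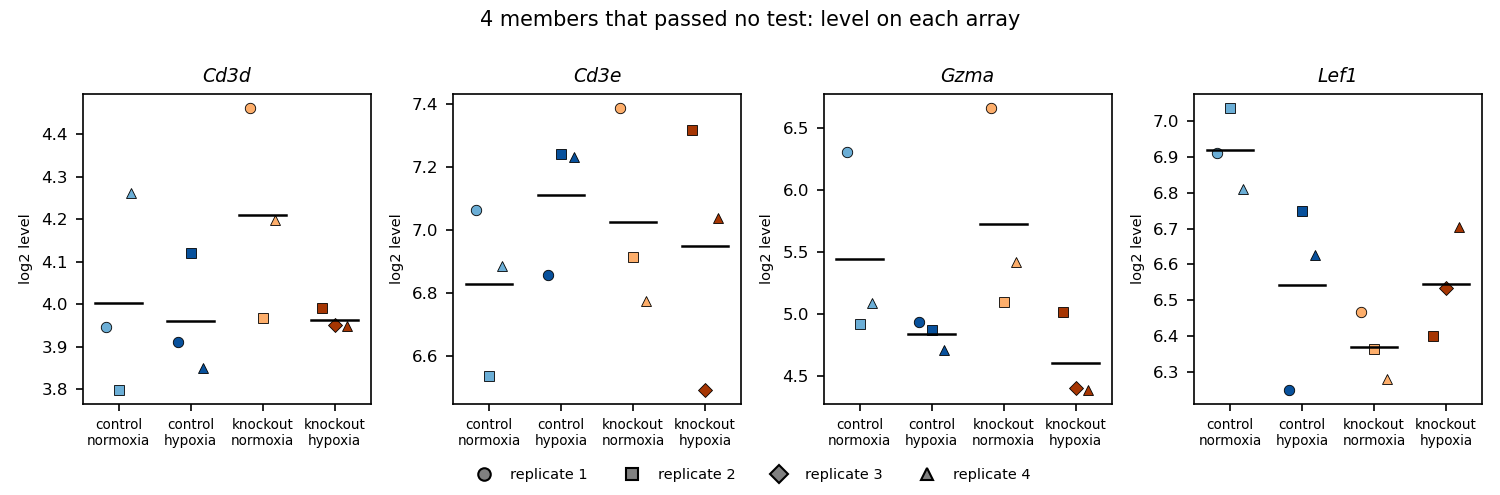
Log2 level on each array (vertical axes, which differ by panel) by group (horizontal axes) for 4 members that passed in no comparison. Symbols are arrays shaped by replicate number and bars are group means of 3. Gzma was above 6 only on control normoxia 1 and knockout normoxia 1, and Lef1 in knockout normoxia lay below control normoxia.

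By genotype, 6 of 32 members fell with hypoxia in control lungs, where 6.14% of all genes fell, and 1 of 32 in knockout lungs, where 0.502% did. In either direction 11.5% of all genes passed in control and 1.14% in knockout lungs, and 5.36% and 0.64% rose. The 6 were Trbc1, Cd8a, Il7r, Klrd1, Klrk1 and Ncr1, and the 1 was Trbc1. The control count was 1 without control hypoxia 2, 3 without control hypoxia 4, 3 without control normoxia 1 and 2 without control normoxia 2, and Trbc1 was called in all of these. In knockout lungs the count was 0 without knockout hypoxia 2, knockout hypoxia 4, knockout normoxia 1 or knockout normoxia 2, and 2 (Trbc1 and Klrd1) without control normoxia 1, whose spread enters the shared fit. The groups did not overlap, with hypoxia lower, in 8 members in control lungs (background 13.7%) and 11 in knockout lungs (background 8.97%). Of the 32 members 21 (65.6%) had lower means with hypoxia in both genotypes, as had 31% of all genes. These comparisons share no arrays, but control normoxia 1 and knockout normoxia 1 were both low in Y-linked genes (3.04 and 2.98). Those arrays were also the highest for 9 and 12 of the 32 members, and the part of this likeness was not tested. None of the 32 had an interaction that passed (smallest adjusted p = 0.57), beside 1 gene (0.00405%) among all tested, so a difference between the genotypes in this response was not shown. At an unadjusted p under 0.05, 11 of 32 members would pass with hypoxia in control lungs (27.4% of all genes) and 11 in knockout lungs (12.6%). On the same rule 2 of 32 interactions would pass (8.25% of all genes), those of Lef1 (0.55 ± 0.18) and Cd4 (-0.53 ± 0.23).

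Between genotypes, 0 of 32 members passed in normoxia (0.00405% of all genes did), 0 in hypoxia and 0 averaged over oxygen states (0% of all genes in both). Counts at an unadjusted p under 0.05 were 2 (7.26% of all genes), 1 (5.1%) and 2 (4.26%). The knockout arrays lay below all control arrays in 3 members in normoxia (6.22% of all genes) and in 1 in hypoxia (5.19%). They lay above all control arrays in 1 member in normoxia (5.46%), Prf1, at 5.29 to 5.53 against 5.07 to 5.26. Lef1 came closest in normoxia, at 6.91, 7.04 and 6.81 in control and 6.47, 6.36 and 6.28 in knockout lungs. These groups did not overlap, and the difference of knockout minus control was -0.55 ± 0.13 (unadjusted p = 0.0012 in limma over 24704 genes, adjusted p = 0.56). In hypoxia it was 0.00 ± 0.13. Cd4 was 0.39 ± 0.16 higher in knockout lungs in normoxia (adjusted p = 0.68), and Zap70 was -0.51 ± 0.19 in knockout against control lungs in hypoxia (adjusted p = 0.95). The median difference over the 32 members was 0.00 in normoxia and -0.02 in hypoxia, as it was -0.00 in both over all genes.

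Other genes linked to these cells were read from wider lists. The lists were not checked for expression in other lung cells, so their values cannot be assigned to T or NK cells. Of 24 further genes of T cell activation and receptor signalling, 12 (50%) fell and 0 rose averaged over genotypes, where 7.4% of all genes fell. Fyb, an adaptor linking the receptor to integrins, fell by 0.84, Gimap6, a GTPase for lymphocyte survival, fell by 0.68, Cd69, an early activation and tissue retention marker, fell by 0.66 and Ms4a4b, a membrane protein of T cells, fell by 0.57 on the log2 scale. Thy1, a T cell surface protein that fibroblasts and other cells also carry, was 0.45 ± 0.14 (adjusted p = 0.053). In control lungs alone 5 of these 24 (20.8%) fell, where 6.14% of all genes fell, and 2 rose, where 5.36% did. The 2 were Thy1, by 0.69 ± 0.20 (limma adjusted p = 0.043), and Bcl11b, a factor that keeps T cell identity, by 0.30 ± 0.08 (limma adjusted p = 0.033). In knockout lungs 2 (8.33%) fell and 0 rose, beside 0.502% and 0.64% of all genes. Of 13 genes of naive and memory recirculation 3 (23.1%) fell, the chromatin organiser Satb1 by 0.43, the repressor Bach2 by 0.42 and the chemokine receptor Ccr6 by 0.20. None of the 17 T helper and regulatory genes passed, and 2 (11.8%) would at an unadjusted p under 0.05, against 28.4% of all genes. The factor Maf had the smallest adjusted p (0.20 ± 0.06, adjusted p = 0.0515).

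Of 28 further NK receptor genes 4 (14.3%) fell and 0 rose averaged over genotypes, again beside 7.4% of all genes. They were Cd226, an activating receptor for nectin-like ligands (-0.51 ± 0.09), Il18rap, a chain of the IL-18 receptor (-0.40 ± 0.07), Klrc1, which encodes the NKG2A partner of CD94 (-0.34 ± 0.09), and Cd160, a receptor of NK and CD8 T cells (-0.22 ± 0.07). Of 24 further granule and effector genes 6 (25%) fell, among them Lyst, which controls granule size (-0.45 ± 0.09), Ccl5, a chemokine of cytotoxic cells (-0.42 ± 0.12), and Ccl4 (-0.33 ± 0.08). The growth and survival cytokines of these cells did not pass, Il15 at -0.04 ± 0.11 and Il7 at 0.10 ± 0.12. Within the list of 17 cytokines, chemokines and receptors 1 rose and 2 (11.8%) fell, beside 7.27% and 7.4% of all genes. The median change was -0.04, with 10 below 0 and 7 above. Ccl17, which attracts CCR4-bearing T cells, rose by 1.03 ± 0.19. Ccr2, a chemokine receptor of monocytes and some T cells, fell by 0.92 ± 0.16, and Cx3cl1, the ligand of CX3CR1 on NK cells and monocytes, fell by 0.40 ± 0.09.

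Other leukocyte lists did not move uniformly. The shares below stand beside 7.4% of all genes that fell averaged over genotypes and 7.27% that rose. Of 12 B cell markers 8 (66.7%) fell, led by Ms4a1, which encodes CD20 (-1.18 ± 0.17), and Bank1, a B cell adaptor (-1.17 ± 0.12), and the mean of the 12 lay between 6.55 and 6.86 on normoxic and between 5.76 and 6.36 on hypoxic arrays. Of 11 neutrophil markers 3 (27.3%) fell and 0 rose. Their mean was 4.39 in normoxic and 4.41 in hypoxic control lungs, and 4.63 and 4.12 in knockout lungs. Among 12 genes shared by all leukocytes 2 (16.7%) fell and 1 rose, and their median change was -0.13. Ptprc, the common leukocyte antigen CD45, fell by 0.93 ± 0.12 and Cd53 fell by 0.32 ± 0.09, while the integrin chain Itgb2 rose by 0.37 ± 0.09. Of 10 innate lymphoid and gamma-delta T cell genes 2 (20%) fell, Kit and the kinase Blk, which is also counted as a B cell marker. Thymocyte markers differed little, with 2 falls among 11, or 18.2% (Mns1 and Cd24a, both used by other cells) and a mean between 4.95 and 5.12 over all arrays, and 0 of 8 thymic epithelial markers passed. Of 6 lymph node stroma markers 1 fell, Cr2, which B cells also express. Red cell markers gave 0 of 5. The part of these other cells in the change of the T and NK genes was not tested.

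**Figure D4:**
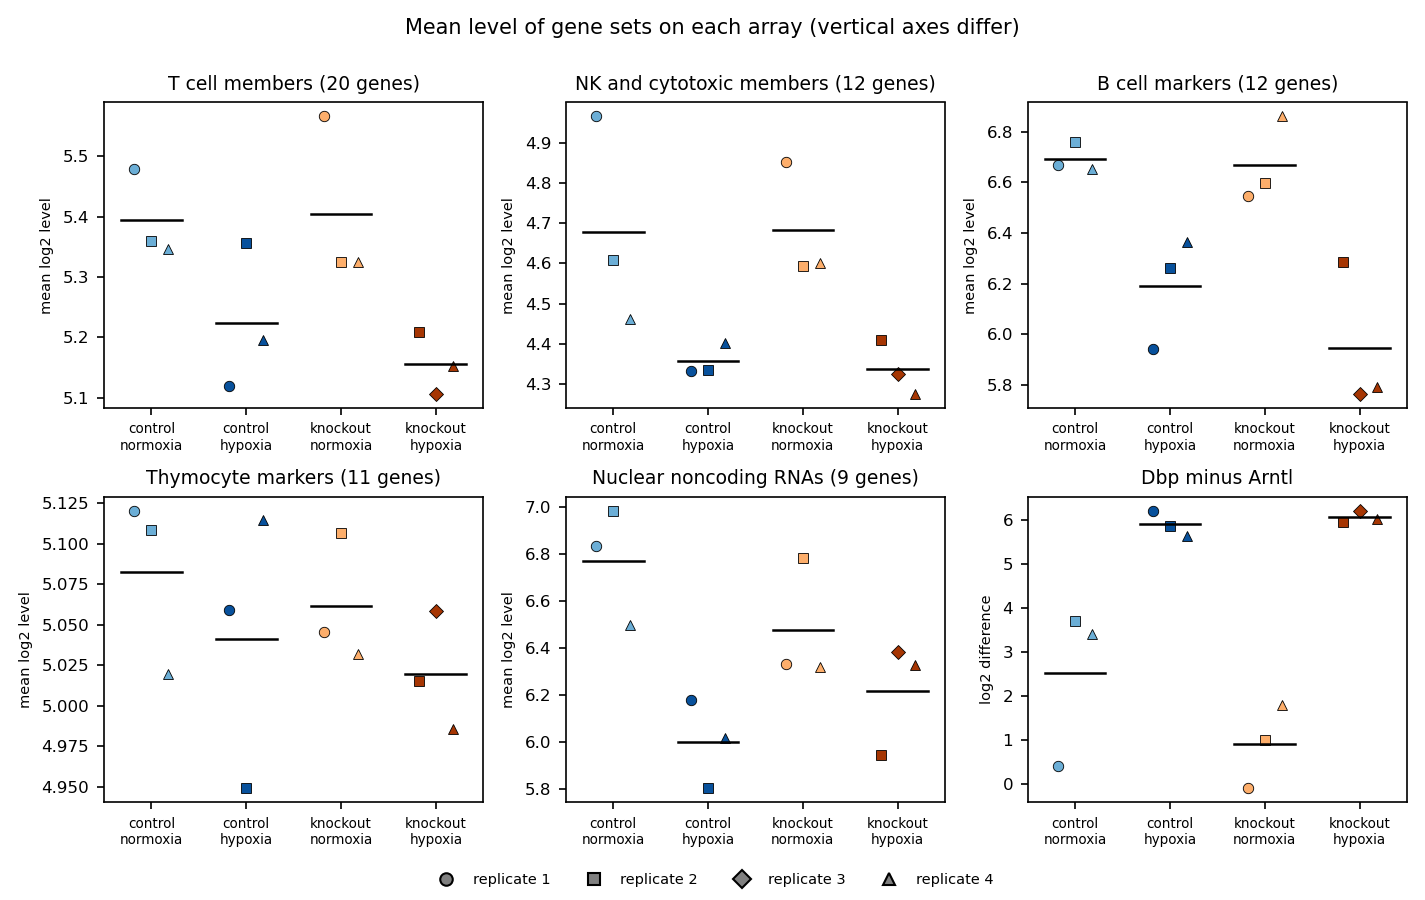
Mean log2 level on each array (vertical axes, which differ by panel) of the T cell members, the NK and cytotoxic members, B cell markers, thymocyte markers and nuclear RNAs, and the log2 difference of Dbp minus Arntl, by group (horizontal axes). Symbols are arrays shaped by replicate number and bars are group means of 3. The NK and cytotoxic mean is between 4.46 and 4.97 on normoxic arrays and between 4.28 and 4.41 on hypoxic ones.

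The mean of the 12 NK and cytotoxic members was 4.68 ± 0.26 (SD, n = 3) in normoxic and 4.36 ± 0.04 in hypoxic control lungs, and 4.68 ± 0.15 in normoxic and 4.34 ± 0.07 in hypoxic knockout lungs. The mean of the 20 T cell members was 5.39 ± 0.07, 5.22 ± 0.12, 5.41 ± 0.14 and 5.16 ± 0.05 in the same order. Knockout normoxia 1 was the highest of the 12 arrays for 12 of the 32 members and control normoxia 1 for 9, while knockout hypoxia 3 was the lowest for 8 and control hypoxia 1 for 7. Control hypoxia 2 was above the 12-array median for 13 of 20 T cell members and 4 of 12 NK and cytotoxic members. Its T cell mean of 5.36 lay inside the normoxic range, and its NK and cytotoxic mean of 4.33 below all normoxic arrays.

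Another 3 measures moved with these arrays, and each was fitted as a covariate. Y-linked genes were low, as in females, on 2 of 6 normoxic arrays (control normoxia 1 and knockout normoxia 1) and on 4 of 6 hypoxic arrays. Within the arrays low in Y-linked genes, hypoxic minus normoxic means were -0.81 for Trbc1, -1.09 for Cd3g, -1.73 for Klrd1, -0.82 for Klrk1, -0.72 for Ncr1 and -1.83 for Gzma. Within the arrays high in Y-linked genes the same differences were -0.73, -0.64, -0.63, -0.46, -0.44 and -0.27. All 9 members that fell had negative differences in both. These members were chosen for lower hypoxic levels on the same arrays. Where every hypoxic array lies below every normoxic one, as for Trbc1 and Klrd1, any split gives a negative difference. The part of sex was not tested by this split. With the Y-linked mean as a covariate all 9 still passed, and Gzma (-1.21 ± 0.24, limma adjusted p = 0.015) and Cd27 (-0.42 ± 0.11, adjusted p = 0.039) passed as well.

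The second measure was a difference of 2 clock genes. No time of harvest is among the sample annotations used here. Both genes also changed with hypoxia averaged over genotypes (Dbp 2.02 ± 0.29, Arntl -2.25 ± 0.24), so the phase of the clock was not measured. The log2 difference of Dbp minus Arntl was between 5.64 and 6.21 on hypoxic arrays and between -0.10 and 3.72 on normoxic arrays. The 2 lowest values were on knockout normoxia 1 and control normoxia 1, the 2 arrays highest in Gzma and Klrd1. These are also the normoxic arrays low in Y-linked genes and share replicate number 1, so these features cannot be told apart on them. With the Dbp minus Arntl difference as a covariate, 0 of 32 members and 0 of all genes passed averaged over genotypes. Its values split by oxygen without overlap. Trbc1 was -0.73 ± 0.25 in that fit, whereas Klrd1 turned to 0.52 ± 0.21, Il7r to 0.11 ± 0.37 and Klre1 to 0.14 ± 0.21. The third measure was the mean of 9 nuclear noncoding RNAs, which was 6.77 ± 0.25 (SD, n = 3) in normoxic and 6.0 ± 0.19 in hypoxic control lungs, and 6.48 ± 0.26 in normoxic and 6.22 ± 0.24 in hypoxic knockout lungs. With it as a covariate 0 of 32 members passed, and of all genes 85 passed in place of 3622. Cd3g (-1.10), Klrd1 (-1.0), Trbc1 (-0.61), Cd8a (-0.52), Ncr1 (-0.48), Lat (-0.40) and Klrk1 (-0.39) were below 0 in that fit, as were Il7r (-0.20) and Klre1 (-0.11), and the smallest adjusted p among the 9 was 0.14.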

How the data were processed

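RNA of whole mouse lung was hybridised as biotinylated cRNA to 12 Affymetrix arrays, 3 in each of 4 groups of genotype and oxygen, with groups and replicate numbers taken from the sample titles. The authors deposited 1 table of log2 expression values, made with RMA per the submitters' processing notes, with its version, probe annotation and filters not given in the sources used here. RMA forces all arrays to 1 distribution, so a change in total RNA cannot be seen. Scanner files were not used here, so background correction was not varied. Array number limits the precision.

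Of 25428 probe sets, 24705 carried 1 symbol in the platform annotation, and the brightest was kept per symbol (24704 genes). Group means were fitted to all genes with limma 3.58.1 in R 4.3.3 (8 residual degrees of freedom) and 7 contrasts were tested, two-sided, with Benjamini-Hochberg adjustment over all genes. Genes were called at an adjusted p under 0.05. The fit was checked on simulated data. Replicates are taken to be separate mice, since the design text speaks of 4 mice in each group, of which 3 arrays each were used here. Taken over all groups, same-numbered arrays did not regularly deviate together (r over 0.1 in 4 of 15 pairs, from -0.24 to 0.28). No block was used in the main fit. Within normoxia, however, control and knockout arrays numbered 1, 2 and 4 had r of 0.09, 0.28 and 0.18. Their Y-linked means were also alike (3.04 and 2.98, 6.69 and 6.66, 6.18 and 6.12). The labels do not say whether arrays were matched by number.

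The members, the 18 gene lists and the contrasts were chosen with earlier results of these data known. Every member could be named, along with called genes of a list, the 2 with the smallest unadjusted p where none was called, and a few set markers. Trac, Trbc2, Rag2, Dbp, Arntl, Thy1, Il15 and Il7 were named after their values could be seen. Alternatives were leaving out each array, the replicate number as a block, a filter on dim probe sets, cyclic loess, a trended robust variance, array weights, a fit of 2 groups alone, every probe set, and Y-linked or nuclear RNA means as covariates. A clock covariate and leaving out 3 arrays with brown fat or heart markers were chosen after seeing the data. Promoters are from RefSeq (GRCm38.p6), with windows for 23 of the 32 members. Gene order was read from a RefSeq gene table of the same assembly.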

Additional observations from a re-analysis of the deposited data

How the results depend on the processing

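Averaged over genotypes, 9 members fell; leaving out 1 array at a time gave 7 to 10, and the count was within 1.5 times of 9 under the replicate block, the dim filter, cyclic loess, the trended variance, array weights, every probe set and the Y-linked covariate. It was 4 without the 3 arrays with brown fat or heart markers, 0 with nuclear RNA as a covariate and 0 with the clock covariate. Values of both covariates did not overlap between oxygen states in control lungs, so they take up part of that contrast. In control lungs 6 became 1 to 8 without single arrays, 1 in a fit of the 2 groups alone, and 0 with either the nuclear RNA or the clock covariate. In knockout lungs 1 (Trbc1) became 0 to 2 without single arrays and 0 with the replicate block, with the 2 groups alone, with the nuclear RNA covariate, with the clock covariate and without the 3 arrays. The 2-group fit has fewer residual degrees of freedom, and the other causes were not tested. With the clock covariate the averaged changes of Il7r (0.11), Klrd1 (0.52) and Klre1 (0.14) turned positive. Since that covariate split by oxygen without overlap, the oxygen change in this fit is an extrapolation. The median over T cell members moved from -0.13 to -0.29 averaged and from -0.12 to -0.31 in control lungs with nuclear RNA as a covariate. For the interaction it moved from -0.17 to -0.069 with the replicate block and to 0.019 with nuclear RNA, with -0.19 to -0.052 without single arrays; the median over NK and cytotoxic members in control lungs was -0.37 to -0.13 without single arrays. The replicate number as a block also took the call of Cd8a in control lungs (limma adjusted p = 0.055) and of Klre1 averaged (limma adjusted p = 0.060). Whether that number pairs mice is not given in the labels. Of 356 values of called members under alternatives, 266 kept direction and call, 87 lost the call and 3 reversed. Counts between genotypes and for the interaction stayed at 0 under every alternative run for them, which did not include the clock covariate or leaving out the 3 arrays. Low signal limits the 11 members with a mean below the array median, Klre1, Ctla4, Gzmb, Foxp3, Klrk1, Eomes, Klrg1, Cd3d, Cd6, Icos and Cd27, among them the called Klrk1 and Klre1.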
